A study of Mus musculus with 12 samples.

Results

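The aldehyde dehydrogenase genes are 10 of the 55401 genes listed in the normalized count table of these airway organoids. They are Aldh1a1, Aldh1a3, Aldh1a7, Aldh1b1, Aldh2, Aldh3a1, Aldh3a2, Aldh3b1, Aldh7a1 and Aldh9a1, found by their gene names. The set was chosen by the normalized counts themselves, because Aldh1a1 and Aldh3a1 were higher after ablation in all 6 pairs of libraries, so the difference between ablation and control is given for all members as a description. Numbers of members past a threshold of a model are printed there beside those of all genes, and nothing is read from them. All 10 members passed the filter on low values, which kept 13792 genes, and no member had to be left out.

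Bulk RNA sequencing covered 12 libraries of airway organoids, spheres of epithelial cells grown from the lungs of adult C57BL/6J mice. In 6 dishes, 10 neighboring cells in each of 45 organoids had been ablated with a femtosecond laser, and 6 dishes stayed untreated as control. The medium was FluoroBrite DMEM, for which the sequencing methods name no supplement. Organoids were harvested 4.5 h after ablation, with controls kept under the same conditions. Ablation and control libraries carry the same numbers (1, 3, 4, 5, 6 and 7), and both libraries of a number share passage and culture day, which makes them a pair. All libraries, controls included, came from wild-type cells carrying a lentiviral construct in which the p63 promoter, active in basal cells, drives a nuclear H2A-mCherry marker. Pairs 1, 3 and 5 form library set 1 and pairs 4, 6 and 7 set 2, by 2 runs of library numbers. Pairs 1, 4 and 5 had been grown for 14 or 15 days and pairs 3, 6 and 7 for 18 to 20 days, as the day numbers in the titles were read. Passage followed library set in part, with a shared passage in pairs 4 and 5 and otherwise later passages in set 2, and no model with both was fitted.

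The titles of controls 4, 6 and 7 hold the word ablation, whereas their treatment label says control, and they were used as controls. With the samples of these 3 pairs exchanged, the mean log2 difference of Aldh1a1 is -0.03 and that of Aldh3a1 is -0.02. The cells were rich in basal markers, with a mean of 274709 normalized counts of Krt5, a keratin of basal cells, in the control. Of the secretory markers, Scgb1a1, the defining product of club cells, had a mean of 3.97 normalized counts there, whereas Cyp2f2, a cytochrome P450 of club cells, had 50895 and Krt13 and Krt4, keratins of suprabasal cells, had 29829 and 9624. The summed ciliated markers lay between 166 and 216 normalized counts in the control, with Tekt1 at 0 in every library. Fibroblast markers summed to at most 48.3 and endothelial and immune markers to at most 231. For 9 libraries whole reads could be recovered from the normalized counts, which summed to 23631212 to 29775699 reads.

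Aldehyde dehydrogenases oxidize reactive aldehydes to carboxylic acids with NAD+ or NADP+. They clear aldehydes made by alcohol metabolism and by the peroxidation of membrane lipids, and the ALDH1A enzymes turn retinal into retinoic acid, the ligand of the retinoic acid receptors. In epithelia, high aldehyde dehydrogenase activity is often used to mark progenitor cells. Levels of single enzymes also differ between airway cell types, and in bulk samples fewer cells of a type and less RNA per cell cannot be told apart.

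Aldh1a1 and Aldh1a7, close copies of each other, lie side by side on chromosome 19 (GRCm38). Aldh1a1 spans chr19:20492715-20643465 on the plus strand and Aldh1a7 spans chr19:20692953-20727562 on the minus strand. Their coding sequences are both 1503 bases long, differ at 126 bases and are 91.6% identical. Since each read of a pair was 75 bases long, the sequences show where a single read can tell the 2 genes apart. The first window below covers coding bases 121 to 195, counted from the start codon, which are spliced from exons 2 and 3 of 13 (chr19:20610967-20617903 in Aldh1a1 and chr19:20722395-20727008 in Aldh1a7), and is the same in both genes. The other window covers coding bases 317 to 391 in exon 4 (chr19:20619973-20620047, plus strand, and chr19:20719237-20719311, minus strand), where the 2 genes differ most. Capitals mark the 17 differing bases.
Aldh1a1 and Aldh1a7, identical window: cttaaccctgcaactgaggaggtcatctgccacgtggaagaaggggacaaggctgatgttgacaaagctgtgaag
Aldh1a1, most different window: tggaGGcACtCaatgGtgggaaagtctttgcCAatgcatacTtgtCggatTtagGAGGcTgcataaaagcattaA
Aldh1a7, most different window: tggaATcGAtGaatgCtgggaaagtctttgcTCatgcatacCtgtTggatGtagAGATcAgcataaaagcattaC

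Of the 1429 coding windows of this length, 50 were identical between Aldh1a1 and Aldh1a7 and 334 (23.4%) differed at no more than 2 bases. The median was 6 differences, and 837 windows (58.6%) had at least 5. Over whole transcripts, 50 of 4934 stretches of 75 bases in Aldh1a1 (1.01%) and 50 of 1992 in Aldh1a7 (2.51%) also occur in the other gene. A single read from these stretches cannot tell the 2 genes apart. Reads came in pairs, and how such reads were counted was not examined. These shares are therefore no measure of the uncertainty of either level. Among the other members, Aldh3b1 shares 57 of its 1971 stretches (2.89%) with Aldh3b2 and Aldh3b3, Aldh1a3 shares 27 of 4601 (0.587%) with unrelated genes, and the remaining 6 members share none.

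**Figure D1:**
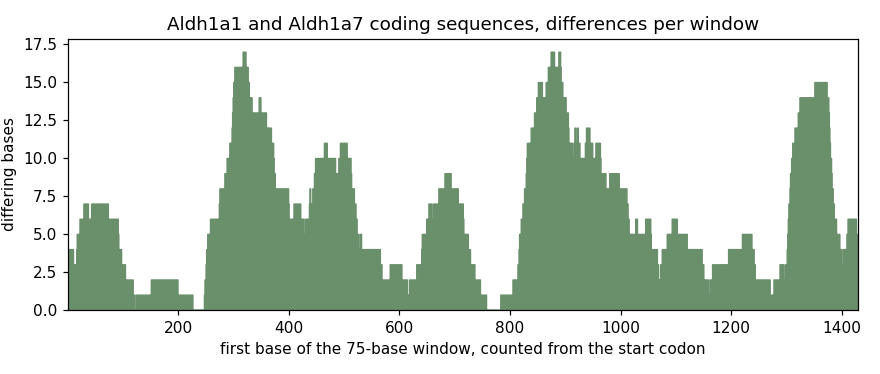
Number of bases that differ between the Aldh1a1 and Aldh1a7 coding sequences in each window of 75 bases, plotted against the first base of the window counted from the start codon. Each bar is 1 of 1429 windows; the count reaches 17 at its highest and 0 in 50 windows.

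The 250 bases before the start of transcription were also compared, since Aldh1a1 and Aldh1a7 moved together across libraries (below). RefSeq (GRCm38.p6) gives Aldh1a1 a pair of starts, and the one shown is the downstream start, inside the longer gene model. Capitals mark a run of 65 bases, from 94 to 30 bases before each start, that is identical in both genes. The same base stood at 94 of the 100 positions nearest the start, and at 129 of all 250.
Aldh1a1, chr19:20601718-20601967, plus strand: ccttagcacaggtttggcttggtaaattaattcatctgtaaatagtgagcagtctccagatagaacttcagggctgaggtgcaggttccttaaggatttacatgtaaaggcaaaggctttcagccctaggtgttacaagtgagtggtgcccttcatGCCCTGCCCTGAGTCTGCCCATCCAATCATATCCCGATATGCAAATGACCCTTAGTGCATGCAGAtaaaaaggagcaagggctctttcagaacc
Aldh1a7, chr19:20727557-20727806, minus strand: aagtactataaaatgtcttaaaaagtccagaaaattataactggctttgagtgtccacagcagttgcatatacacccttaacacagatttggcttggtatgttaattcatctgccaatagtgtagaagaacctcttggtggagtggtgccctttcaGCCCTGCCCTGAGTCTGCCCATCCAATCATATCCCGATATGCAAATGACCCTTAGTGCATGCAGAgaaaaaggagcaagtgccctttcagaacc

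The shared run holds CCAAT and the octamer ATGCAAAT. Searched on both strands, ATGCAAAT occurs in 1.60% of the 32851 promoters of the table and CCAAT in 33.8%. Of the 7 promoters listed for 6 members (Aldh1a1, Aldh1a7, Aldh1b1, Aldh3a2, Aldh3b1 and Aldh9a1), 2 held ATGCAAAT, 4 held CCAAT and 1 held TATAAA, which 12.4% of all promoters hold. The core of the xenobiotic response element, GCGTG, occurred in 2 of the 7 and in 28.2% of all, and the antioxidant response core TGACNNNGC in 1 of the 7 and in 10.2% of all. No promoter was listed for Aldh3a1, Aldh1a3, Aldh2 or Aldh7a1, so these counts do not cover them. These matches are letters in a window and not sites of binding.

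Beside this pair of genes, Aldh3b1 also lies on chromosome 19 (chr19:3913491-3929808), Aldh3a1 and Aldh3a2 lie next to each other on chromosome 11, and the others lie apart, Aldh1a3 at chr7:66390890-66427517, Aldh1b1 at chr4:45799022-45804604, Aldh2 at chr5:121566027-121593824, Aldh7a1 on chromosome 18 and Aldh9a1 at chr1:167349991-167368532 (GRCm38). Levels were compared between members per 1000 bases of gene model, over the 6 control libraries. Aldh3a1, a dioxin-inducible enzyme known for its abundance in the cornea, was the most abundant with 13898 ± 2131 normalized counts per 1000 bases (SD, n = 6), rank 63 of all 13792 genes tested. Aldh2, the mitochondrial enzyme that clears acetaldehyde, followed with 1803 ± 149. These 2 levels did not overlap each other or any other member. Aldh1a3 (867 ± 235) and Aldh1a1 (588 ± 122), both retinal dehydrogenases, overlapped, and Aldh1a3 was the higher one in 7 of all 12 libraries.

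Aldh1a7 (465 ± 135 normalized counts per 1000 bases) lay below Aldh1a1 in 12 of 12 libraries, although their ranges over the controls overlapped. Aldh3a2, the fatty aldehyde dehydrogenase of the endoplasmic reticulum (424 ± 30.6), overlapped with Aldh1a7 and with Aldh9a1 (380.0 ± 40.5), which oxidizes trimethylaminobutyraldehyde in carnitine synthesis. The 3 members at the lower end were separated from their neighbours in 12 of 12 libraries. They were Aldh3b1 (202 ± 21.2), an enzyme of lipid-derived aldehydes, Aldh7a1 (116 ± 7.28), which acts in lysine breakdown, and the mitochondrial Aldh1b1 (20.2 ± 6.40).

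**Figure D2:**
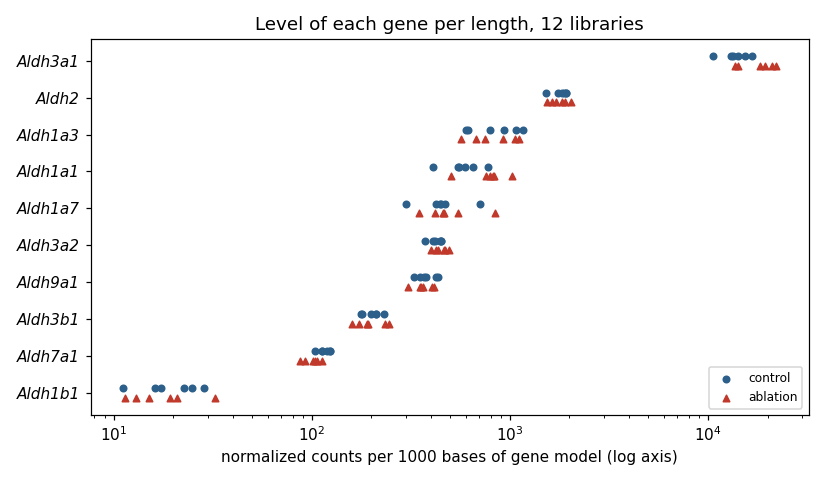
Level of each aldehyde dehydrogenase gene in normalized counts per 1000 bases of gene model, on a log axis. Each point is a library (circles control, triangles ablation, 6 each); Aldh3a1 stands apart at the top with a control mean of 13898, and Aldh1b1 at the bottom with 20.2.

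After ablation, Aldh1a1 and Aldh3a1 were higher in 6 of 6 pairs and Aldh7a1 was lower in 6 of 6, whereas none of the other 7 members kept 1 direction in all 6 pairs. Aldh1a1 had a mean of 3890.4 ± 825 normalized counts after ablation and 2905 ± 600 in the control (SD, n = 6 each), a log2 difference of 0.42 (SE 0.12). Aldh3a1 had 35131 ± 6691 and 26991 ± 4138, a log2 difference of 0.37 (SE 0.13). Aldh7a1 had 521 ± 47.6 and 600.5 ± 37.7, a log2 difference of -0.21 (SE 0.073). Log2 differences are on the scale of log2(normalized count + 1). These SEs come from the model with condition and library set, which leaves the pairs out. With the pair in the model instead, they were 0.043 for Aldh1a1, 0.056 for Aldh3a1 and 0.061 for Aldh7a1.

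Of all genes tested, 5.17% were higher in all 6 pairs and 4.63% lower in all 6, beside 2 and 1 of the 10 members. With limma and library set as the second factor, 0% of all genes and 0 members passed an adjusted p of 0.05. At an unadjusted p under 0.05 there were 1083 genes (7.85%) and 3 members, and edgeR on the 9 libraries with recovered reads called 0 genes. With the pair in the model in place of the library set (the replicate block), limma called 150 genes (1.09%). Of these, 93 (0.674%) were called higher, Aldh1a1 and Aldh3a1 among them, and 57 lower (0.413%), with no member among them. Without pair 4, the paired model called 8 genes in all, 1 of them a member. Since this comparison chose the members, nothing is read from these counts. In the same comparison the ablation and control libraries did not overlap for 0.457% of all genes and for 0 members, so the ranges of both conditions overlapped for all 10. The median log2 difference was -0.025 over the members and -0.0036 over all genes tested.

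In Aldh1a1, the retinal dehydrogenase of many stem and progenitor cells, library set 1 held 3812, 3235 and 2945 normalized counts in controls 1, 3 and 5 and 5056, 3920.6 and 4102 in the ablation libraries of the same numbers. Library set 2 held 2728, 2696 and 2015 in controls 4, 6 and 7 and 4039, 3730.1 and 2495 after ablation. Pair 7 was the lowest in both conditions, and its ablation library lay below 5 of the 6 controls. Within pairs the ratio of ablation to control was 1.33, 1.21, 1.39, 1.48, 1.38 and 1.24 in pairs 1, 3, 5, 4, 6 and 7. The mean log2 difference was 0.39 in set 1 and 0.45 in set 2.

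Aldh3a1 held 27628, 20529.7 and 30053 normalized counts in controls 1, 3 and 5 and 37499.7, 26604 and 35526 after ablation. In set 2 it held 32478, 26001 and 25256 in controls 4, 6 and 7 and 42774, 40716 and 27665 after ablation. The ratios were less even than for Aldh1a1, from 1.10 in pair 7 and 1.18 in pair 5 to 1.57 in pair 6. The ablation libraries of pairs 3 and 7 lay within the range of the controls. The mean log2 difference was 0.35 in set 1 and 0.39 in set 2, and leaving out single pairs gave 0.32 to 0.42.

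Aldh7a1 ranged from 454 to 582 normalized counts (median 530.4) after ablation and from 541 to 638 (median 602) in the control. Its log2 difference within pairs ran from -0.42 in pair 5 to -0.04 in pair 4. The mean was -0.30 in library set 1 and -0.11 in set 2. The gene overlaps exons of Phax on the opposite strand, and these libraries were stranded.

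Of the other 2 genes of the ALDH1A group, Aldh1a7 went the same way as Aldh1a1 in most pairs and Aldh1a3 did not. Aldh1a7 ranged from 718 to 1738 normalized counts (median 953) after ablation and from 616 to 1467 (median 919.7) in the control. It was higher in 5 of 6 pairs, with a mean log2 difference of 0.13 (SE 0.19, paired model 0.052). This difference was 0.066 in library set 1 and 0.20 in set 2. Aldh1a3 ranged from 2608 to 5148 (median 3843) after ablation and from 2786 to 5403 (median 4005) in the control. It was higher in 2 pairs and lower in 4 (log2 difference -0.03, SE 0.19, paired model 0.041). In both genes the libraries of the 2 conditions covered nearly the same range.

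Among the remaining members, the levels of both conditions overlapped widely and mean log2 differences lay between -0.13 and 0.08. Aldh3a2, the neighbour of Aldh3a1 on chromosome 11 (chr11:61223417-61267464, minus strand, beside chr11:61207537-61218421, plus strand), was higher in 5 of 6 pairs, with 2243 to 2774 normalized counts after ablation and 2092 to 2533 in the control. Aldh2 was higher in 3 pairs and lower in 3, with 7889 to 10455 and 7817 to 9879.
Aldh9a1 was lower in 5 of 6 pairs, from 1031 to 1401 normalized counts after ablation against 1111 to 1464 in the control. The differences were small, with a mean log2 value of -0.06 (SE 0.066, paired model 0.039). Aldh3b1 was split 3 to 3, with 327 to 505 normalized counts after ablation and 362 to 475 in the control. Aldh1b1, the least abundant, had 26.3 to 75.1 and 25.7 to 65.6, and its log2 difference per pair swung from -0.80 in pair 4 to 0.77 in pair 6.

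**Figure D3:**
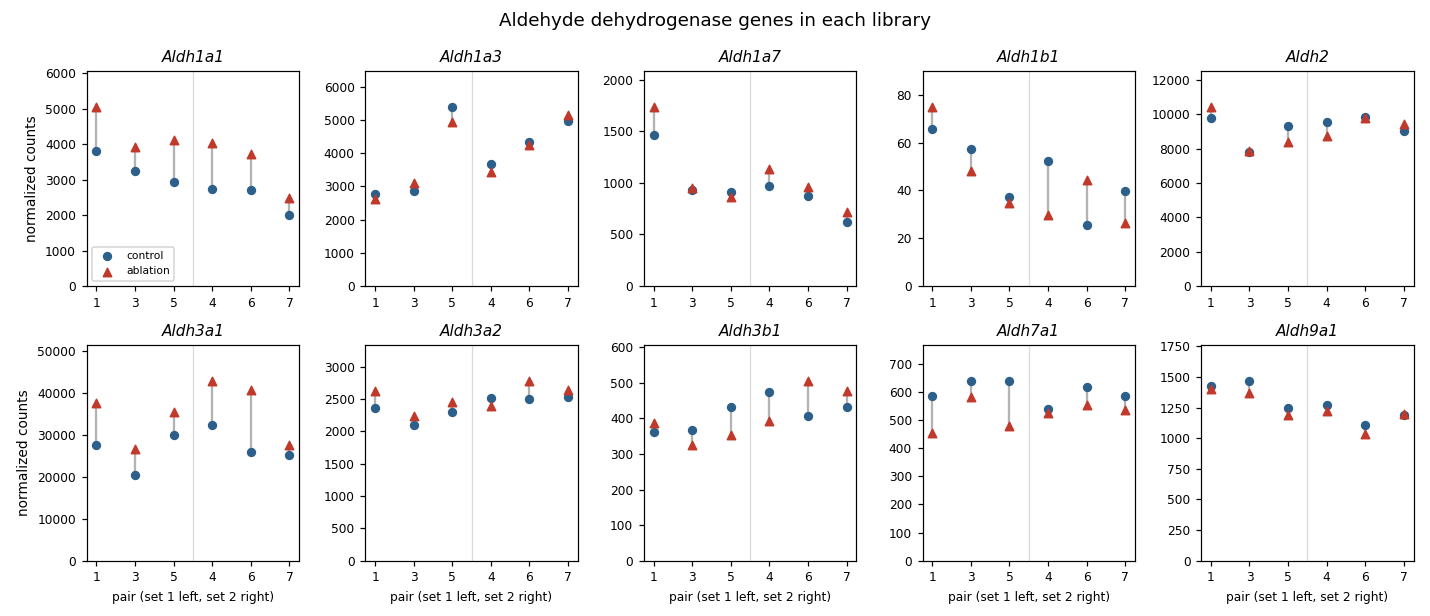
Normalized counts of the 10 aldehyde dehydrogenase genes in each library, by pair (circles control, triangles ablation, joined within a pair; library set 1 on the left and set 2 on the right of the line). In Aldh1a1 and Aldh3a1 the triangle lies above the circle in all 6 pairs and in Aldh7a1 below it, whereas Aldh1a3 differs far more between pairs (2608 to 5403) than within them.

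**Figure D4:**
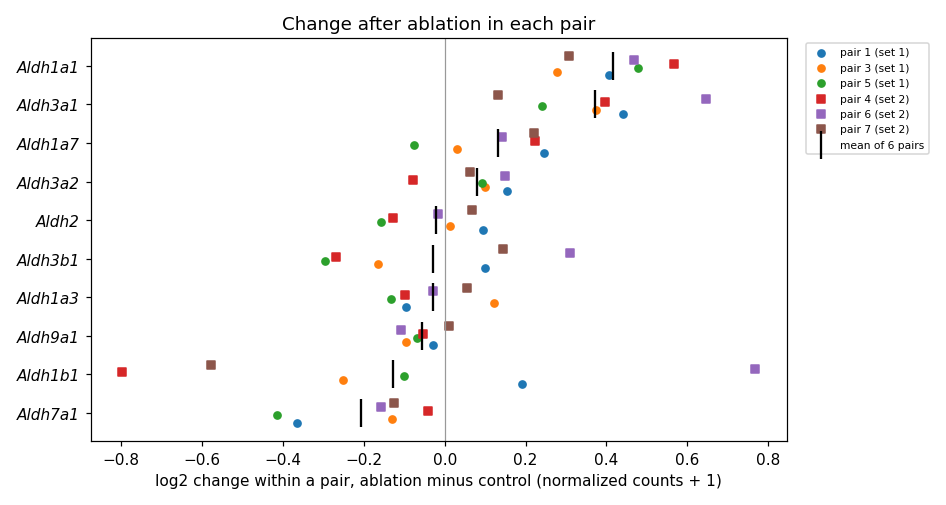
Log2 difference between ablation and control in each pair, on the scale of log2(normalized count + 1), for each gene in the order of the mean (vertical bar). Points are the 6 pairs (circles set 1, squares set 2); all 6 lie to the right of 0 for Aldh1a1 (mean 0.42) and Aldh3a1 (mean 0.37) and to the left for Aldh7a1 (mean -0.21).

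For 4 members the spread of the pair means was large beside the spread, over pairs, of the difference between ablation and control. The SD of the pair means was 3.96 times the SD of the differences within pairs for Aldh1a3, 3.53 times for Aldh9a1, 3.20 times for Aldh1a7 and 2.89 times for Aldh1a1 (log2 scale). For Aldh9a1 the SD of the pair means, 0.15, was close to the median of all genes, 0.14. The SD of its differences within pairs was 0.044, against a median of 0.15. Aldh1b1 had the largest SD of pair means, 0.43, and an SD of the differences within pairs of 0.56. The ratio was 1.38 for Aldh3a1 and lowest for Aldh3b1 (0.64) and Aldh7a1 (0.58). Between the medians of all tested genes it was 0.93. Aldh1a3 ranged over pair geometric means from 2696 normalized counts in pair 1 to 5162 in pair 5, and Aldh1a7 from 666 in pair 7 to 1598 in pair 1.

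Whether cultures of different age differed was tested on the 6 pair means, 3 late (days 18 to 20) against 3 early (days 14 and 15), with library set in the limma model. This comparison did not enter the choice of the members. No member passed an adjusted p of 0.05, as against 1 gene of all tested (0.00725%), and the lowest adjusted p among them was 0.758. At an unadjusted p under 0.05 there were 895 genes (6.49%) and 1 member, Aldh3a1.
Aldh3a1 had pair means of 32189, 37273 and 32676 normalized counts in the early pairs 1, 4 and 5 and of 23371, 32538 and 26434 in the late pairs 3, 6 and 7. Both groups overlapped only in the late pair 6. The log2 difference was -0.41 (95% interval -0.64 to -0.17, limma adjusted p = 0.758). It was -0.42 in the control libraries alone and -0.40 in the ablation libraries alone. With no filter on low values its adjusted p in limma was 0.0489, and under the other 13 alternatives it stayed above 0.05.

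For culture age, the intervals of all other members included 0. Aldh1a7 differed by -0.39 (95% interval -0.97 to 0.20) and Aldh1a1 by -0.22 (-0.61 to 0.16), and the interval of Aldh7a1 ran from -0.053 to 0.34. Without pair 1 the value of Aldh1a7 was -0.21, and that of Aldh1a1 was -0.13 without pair 4 and -0.10 without pair 7. Differences of up to the interval's bounds are therefore not shown to be absent. In all, 2 members were higher and 8 lower in late cultures.

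Between library sets, which also differ in passage apart from pairs 4 and 5, 0 members and 0% of all genes passed an adjusted p of 0.05 in limma, and 1501 genes (10.9%) and 2 members had an unadjusted p under 0.05. Aldh3b1 ranged from 327 to 434 normalized counts in set 1 and from 394 to 505 in set 2 (log2 difference 0.28, 95% interval 0.056 to 0.51, adjusted p = 0.445). Its pair means did not overlap between sets, at most 392.2 in set 1 and at least 434 in set 2. Aldh3a1 was higher in set 2 as well, by 0.26 on the log2 scale (0.029 to 0.50, adjusted p = 0.448), with pair means that overlapped. Aldh1a1 went the other way by -0.33 (-0.71 to 0.062, adjusted p = 0.505), with pair means of 3476 to 4391 in set 1 and 2243 to 3320.1 in set 2. Aldh1a3 and Aldh1b1 had the widest intervals, from -0.38 to 0.96 around 0.29 and from -1.15 to 0.16 around -0.50. Single pairs moved 3 of these values by over 1.5 times, that of Aldh3b1 to 0.18 without pair 3, that of Aldh1a1 to -0.21 without pair 7 and that of Aldh1b1 to -0.32 without pair 1. Without culture age in the model, Aldh3a1 differed by 0.13. None of these differences held after correction over all genes.

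**Figure D5:**
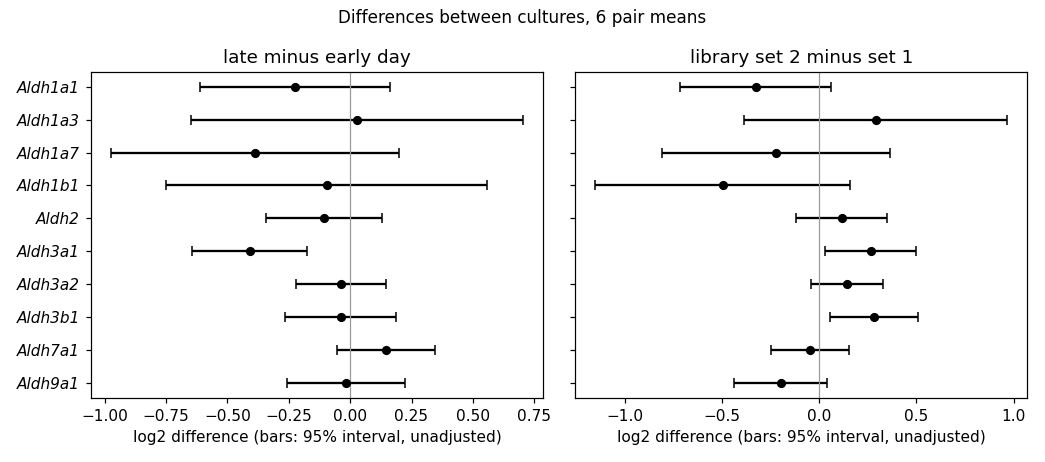
Log2 difference of each aldehyde dehydrogenase gene between late and early cultures (left) and between library sets 2 and 1 (right), from limma on 6 pair means. Bars are 95% intervals not adjusted for the number of genes; the interval leaves out 0 for Aldh3a1 on the left and for Aldh3a1 and Aldh3b1 on the right, and no adjusted p was below 0.445.

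Whether the response to ablation itself differed was tested as the interaction of condition with library set and with culture age in limma. It uses the same differences within pairs that chose Aldh1a1 and Aldh3a1, and a choice for 1 direction in all 6 pairs works against finding a difference between pairs, so for these 2 genes the values are a description. By library set, 0 members and 1 gene of all (0.00725%) passed an adjusted p of 0.05, and 1087 genes (7.88%) and 0 members had an unadjusted p under 0.05, with a lowest adjusted p of 0.717 among the members, in Aldh7a1. The response of Aldh1a1 was larger in set 2 by 0.060 on the log2 scale (95% interval -0.13 to 0.25), and that of Aldh3a1 by 0.040 (-0.21 to 0.29). By culture age, 0 members and 0% of all genes passed, with 803 genes (5.82%) at an unadjusted p under 0.05. Aldh1a3 was the 1 member among these, with a log2 difference of response of 0.16 (95% interval 0.0041 to 0.31, adjusted p = 0.856). The difference between late and early cultures was -0.13 (-0.31 to 0.040) for the response of Aldh1a1 and 0.024 (-0.23 to 0.28) for that of Aldh3a1.

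Members were also compared by their pattern over the 12 libraries, as Pearson's r of log2 values centred within condition. Libraries of a pair share a culture, so these are descriptions. Over the 45 combinations of 2 members the median r was 0.039, with 23 above 0 and a range from -0.78 to 0.88. The highest was that of Aldh1a1 and Aldh1a7 (r = 0.88), the genes with the shared promoter run and shared coding windows shown above. Aldh2 and Aldh3a2 followed with r = 0.82, and Aldh3a2 and Aldh3b1 with r = 0.77. Whether the shared sequences had a part in the r of Aldh1a1 and Aldh1a7 was not tested. Over all other genes tested, the 99th percentile of r was 0.73 for Aldh1a1 and 0.79 for Aldh1a7. Among all genes tested, those most like Aldh1a1 were Ifi30 (r = 0.94), Ik (0.91), Chit1 (0.90), Hscb (0.90) and Timm17b (0.90). Those most like Aldh3a1 were Prkaa2 (r = 0.95), Tex26 (0.92), Nr3c1 (0.91), which encodes the glucocorticoid receptor, Slc1a1 (0.91) and 2310043P16Rik (0.90). For the other members the closest gene was Igfbp3 for Aldh1a3 (0.97), Ccdc149 for Aldh1a7 (0.94), Papln for Aldh1b1 (0.95), Ptpn6 for Aldh2 (0.96), Bace2 for Aldh3a2 (0.96), Atxn7 for Aldh3b1 (0.91), Exosc5 for Aldh7a1 (0.90) and Nt5c for Aldh9a1 (0.95).

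Of the other aldehyde dehydrogenase genes, 8 of 11 passed the filter and 0 were called by the library set model or the paired model. Their median log2 difference was 0.0076. Aldh1l2, a mitochondrial enzyme of folate metabolism, had 7253 ± 534 normalized counts after ablation and 8709.8 ± 1320.1 in the control and was lower in 6 of 6 pairs (log2 difference -0.25, adjusted p = 0.537, and 0.0650 in the paired limma model). Aldh18a1, which acts in proline synthesis, was higher in 6 of 6 pairs by 0.11 (adjusted p = 0.745), and Aldh16a1 was split 3 to 3. Aldh1a2, the third retinal dehydrogenase, was listed at 0 in all 6 controls and held no more than 0.999 normalized counts after ablation, so of the 3 retinal dehydrogenases only Aldh1a1 and Aldh1a3 passed the filter.

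Upstream and downstream of the ALDH1A enzymes, 12 of 18 genes that take up retinol or convert retinol and retinal passed the filter. The library set model called 0, and the paired model called 1 higher, Stra6, the retinol transporter of the cell membrane. It held 7848 ± 1902 normalized counts after ablation and 6461 ± 1435 in the control and was higher in 6 of 6 pairs (log2 difference 0.27, limma adjusted p = 0.739, and 0.0255 in the paired model). The median of the list was 0.061. Of the receptors and targets of retinoic acid, 11 of 17 passed the filter and 0 were called in either model, with a median of 0.0086. The most abundant were Rarg, a retinoic acid receptor, at 0.076 and higher in 6 of 6 pairs, the corepressor Ncor1 at -0.07, and Rxra, the partner of the receptors, at -0.13.

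Among the enzymes that reduce or oxidize other alcohols and aldehydes, 18 of 21 passed the filter and 0 were called in either model, with a median log2 difference of -0.01. Cbr2, a carbonyl reductase, was the most abundant, with 43634 to 95665 normalized counts after ablation and 54039.8 to 80290.3 in the control. Adh7, which oxidizes retinol, was higher in 6 of 6 pairs, from 19118 to 41188 after ablation and 14189.6 to 29553 in the control (log2 difference 0.31, adjusted p = 0.667, and 0.102 in the paired limma model). Akr1a1 differed by -0.04.

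Aldh3a1 belongs to the genes known to be induced through the aryl hydrocarbon receptor. A list of 22 genes held this receptor, Nrf2 (the regulator of antioxidant genes), their partners and genes under them, and 19 passed the filter. The library set model called 0 and the paired model called 3 higher and 0 lower, and the median log2 difference was 0.13. Nqo1, a quinone reductase, held 1925 ± 396 normalized counts after ablation and 1273 ± 39.7 in the control (log2 difference 0.57, adjusted p = 0.187, and 0.0285 in the paired limma model). Its ablation libraries, 1456 to 2377, all lay above the controls, 1222 to 1312. Osgin1, an oxidative stress gene, differed by 0.45 (adjusted p = 0.0638, paired 0.00410) and Slc7a11, the cystine transporter, by 0.30 (adjusted p = 0.486, paired 0.00899). Cyp1b1 and Cyp1a1, enzymes that the receptor is known to induce, are named after their values were seen. Cyp1b1 held 4149 to 11424 normalized counts after ablation and 1754 to 4495 in the control (log2 difference 1.08, adjusted p = 0.239, paired limma 0.0756), and Cyp1a1, under the filter, 1.98 to 339 and 0 to 2.87. Both were higher in 6 of 6 pairs. Of the 19 tested genes, 7 were higher in all 6 pairs and 0 were lower in all 6. Gsta2, likewise named after its values were seen, held 62.8 ± 27.7 normalized counts after ablation and 34.3 ± 11.1 in the control. It was higher in 6 of 6 pairs (log2 difference 0.80, limma adjusted p = 0.604, paired limma 0.0525). Other known targets differed less, Srxn1 by 0.15 and Gsta4 by 0.079, both higher in 6 of 6 pairs. Hmox1 differed by 0.026, Gclc by 0.083, Gclm by -0.11 and Gsta3 by -0.07. Gclm was lower in 4 of 6 pairs and Gsta3 in 5 of 6. Whether the receptor or Nrf2 had a part in the values of Aldh3a1 was not tested.

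The marker sums of airway cell types are given beside these values. The 11 secretory markers, none of them an aldehyde dehydrogenase, summed to 58864 to 142122 normalized counts after ablation and 71528 to 124030 in the control. They were higher in 2 of 6 pairs, with Bpifb1 at 0 throughout and most of the sum from Cyp2f2, Krt13 and Krt4. The median log2 difference of the 7 that passed the filter was -0.16 (-0.48 to -0.0045), and 0 were called in either model. The 10 basal markers summed to 544821 to 708343 and 542929 to 674774 and were higher in 5 of 6 pairs, with most of the sum from Krt5 and Krt14. Their median log2 difference was -0.08. Trp63, the p63 gene, was higher in 6 of 6 pairs (log2 difference 0.39, limma adjusted p = 0.187, and 0.00825 in the paired model). Itga6 was higher in 6 of 6 as well, Itgb4 was lower in 6 of 6, and Pdpn, Dapl1 and Aqp3 were lower in 5 of 6. The summed ciliated markers were 147 to 202 after ablation and 166 to 216 in the control. Their part in the values of the aldehyde dehydrogenase genes was not tested.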

How the data were processed

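Poly(A) RNA was sequenced in stranded libraries with paired reads of 75 bases. Per the methods, the authors used nf-core/rnaseq with the GENCODE mouse reference (GRCm38.p6), followed by normalization in DESeq2. The deposited signal values are their normalized counts, the read counts of each library divided by 1 size factor. The deposited table also holds the authors' fold changes and p-values, which were not used. In all 12 libraries 100% of values were whole multiples of a step (tolerance 0.01). For 9 libraries the depth in whole reads was recovered from it (median 28341576), and for 3, with a step near 1, it was not. Sums of normalized counts were 27297950 to 28504390.

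Genes were tested where 6 or more libraries reached 10 normalized counts, in R 4.3.3 with limma 3.58.1 on log2(value + 1), with trended, robust empirical Bayes and Benjamini-Hochberg adjustment over all 13792 genes. The ablation model held condition and library set, taken as the batch that the study's methods name. Culture age and library set were tested on pair means. Differences in response were first planned on pair differences, a fit that failed its check on simulated data. They were fitted with pair, condition and their interaction, which gives the same estimates. The limma models used were also run on simulated libraries, with no spread between pairs and changes larger than those of the members. Such runs cannot show how the models act at the spread and the sizes of change seen here. edgeR 4.0.16 was used on recovered reads as an alternative. That p-values measure only the spread between these dishes follows from the labels, which name no separate animals.

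Same-numbered libraries share passage and day in their titles. Their deviations from the group means correlated across genes with r = 0.62, 0.49, 0.32, 0.21, 0.38 and 0.33 in pairs 1, 3, 5, 4, 6 and 7, so the paired model is given beside each count it changes. The ablation library of pair 4 correlated more with a control of another number than with its own. In the other pairs the own control was the closest. The members and the 11 gene lists were chosen with earlier results of these data known. Named are all members, list genes past the threshold (otherwise the 3 most abundant), and the 5 genes most like Aldh1a1 and Aldh3a1 and the 1 most like each other member. Positions and sequences came from GENCODE M21, whose versioned gene IDs matched 54349 of the 55401 listed, and from RefSeq promoters, which were at hand for 6 members. The sequence of Aldh7a1 is not reported here.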

Additional observations from a re-analysis of the deposited data

How the results depend on the processing

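With the replicate block (pair in place of library set), 2 members and 4 pathway list genes passed an adjusted p of 0.05 after ablation. With library set, 0 and 0 passed. Cell type markers are not counted here, and of them the replicate block called Trp63. Without a filter on low values, 1 list gene, Osgin1, passed after ablation, and 1 member, Aldh3a1, passed between late and early cultures. The cause was not tested. Every other alternative in the library set model, leaving out single pairs included, left the number of members at 0 in all 5 comparisons (range 0 to 0 without single pairs). When ablation and control were exchanged in pairs 4, 6 and 7, the log2 differences of Aldh1a1, Aldh3a1, Aldh1a7 and Aldh7a1 became -0.03, -0.02, -0.06 and -0.10. In the other alternatives they ran from 0.39 to 0.45, from 0.32 to 0.45, from 0.066 to 0.21 and from -0.30 to -0.11.

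The paired model, whose alternatives were chosen after seeing the data, called 150 genes and 2 members. It called 8 genes and 1 member without pair 4, 90 genes without pair 3, 77 without pair 5, 356 without a filter, and 0 genes and 0 members with plain empirical Bayes or with the exchange. Its count of members was otherwise 2. Fitted directly on pair differences, the response tests called 0 members and 0 genes. That fit had failed its check on simulated data, so nothing is read from these 0 calls. The day comparison rests on 3 pairs a group, and Aldh1b1, at about 20.2 normalized counts per 1000 bases, is the member with the fewest counts behind it.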
